A study of Mus musculus with 12 samples.

Results

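The genes described here are 48 cell division genes, a list that names genes of DNA replication and of mitosis. They were found by symbol among 53465 gene identifiers, and all 48 were matched and passed the filter on low counts that left 15126 genes to test. For description they were divided by role into 17 replication and S phase genes, 27 mitosis genes, a pair of general proliferation markers and a pair of transcription factors of the G2/M phase. Bulk RNA sequencing had been run on mouse skin, in 12 libraries with 3 in each of 4 groups. The groups were Foxp3-DE2 skin given ultraviolet B light (UVB), Foxp3-WT skin given UVB, untreated Foxp3-DE2 skin and untreated Foxp3-WT skin. Foxp3 is the lineage factor of regulatory T cells, and the series title places the altered form at exon 2. The sample labels spell that genotype Foxp3-E2, the protocol Foxp3-DE2 and the title Foxp3dExon2, and it is called DE2 here. Irradiated skin had received 6 doses of UVB on a shaved flank patch, at 200 mJ/cm2 by the sample labels and 100 mJ/cm2 by the protocol. Shaving of the untreated site is not described in the protocol. The labels name no animal, age, sex or batch for any library. Libraries of different groups may therefore come from the same animal, and p-values measure the spread between libraries. Replicate numbers used below follow the order of the samples within each group. The same number in different groups does not mark the same animal or batch.

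A dividing cell first licenses its replication origins with the Mcm helicase, copies its DNA in S phase, and then enters mitosis under cyclin B and Cdk1. Replication genes are switched on largely through E2F factors, while many mitosis genes are held off in resting cells and switched on later by complexes that hold B-Myb and FoxM1. These complexes act at a promoter element known as the cell cycle genes homology region, or CHR. The CCAAT box is a separate promoter element, bound by another factor. In skin, dividing cells lie in the basal epidermis and, while a hair grows, in the matrix of the hair bulb.

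Total counts were 2809142 to 4741726 per library. Levels are given as CPM, the count of a gene scaled to library size after edgeR's TMM correction for library composition. A gene was called, and is said to have risen or fallen, where edgeR's quasi-likelihood test gave p under 0.05 after Benjamini-Hochberg adjustment over the 15126 genes. All adjusted p-values below come from that fit. The 3 untreated DE2 libraries stood apart from the other libraries in marker genes as well, with less hair follicle and melanocyte RNA and more skeletal muscle RNA, and those values stand beside the results further on. In whole skin, fewer cells of a type and less RNA per cell cannot be told apart.

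Cell division RNA was low in untreated DE2 skin, and the other 3 groups overlapped at higher levels. The 48 genes summed to 2631 ± 354 CPM in irradiated DE2 skin, 2693 ± 881 CPM in irradiated WT skin, 667 ± 107 CPM in untreated DE2 skin and 2775 ± 144 CPM in untreated WT (SD, n = 3 each). The sum in untreated DE2 was 0.24 times that in untreated WT, and irradiated DE2 skin held 3.94 times the sum of untreated DE2. Each of the 48 genes was lower in all 3 untreated DE2 libraries than in any untreated WT library, where 20.4% of all genes were separated in that direction. At the untreated site 42 of the 48 fell in DE2 and 0 rose, against 11.2% of all genes lower and 11.8% higher. With UVB, 40 of the 48 rose in DE2 and 0 fell, against 14.4% of all genes higher and 13.4% lower. The 3 irradiated DE2 libraries lay above the 3 untreated ones for 41 of the 48, where the share over all genes was 22%. These last comparisons share the untreated DE2 libraries, so they are not independent of each other. The median log2 fold change of the 48 was -2.37 for DE2 against WT at the untreated site and 2.40 for UVB in DE2, while the medians over all genes were 0.031 and 0.019.

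**Figure D1:**
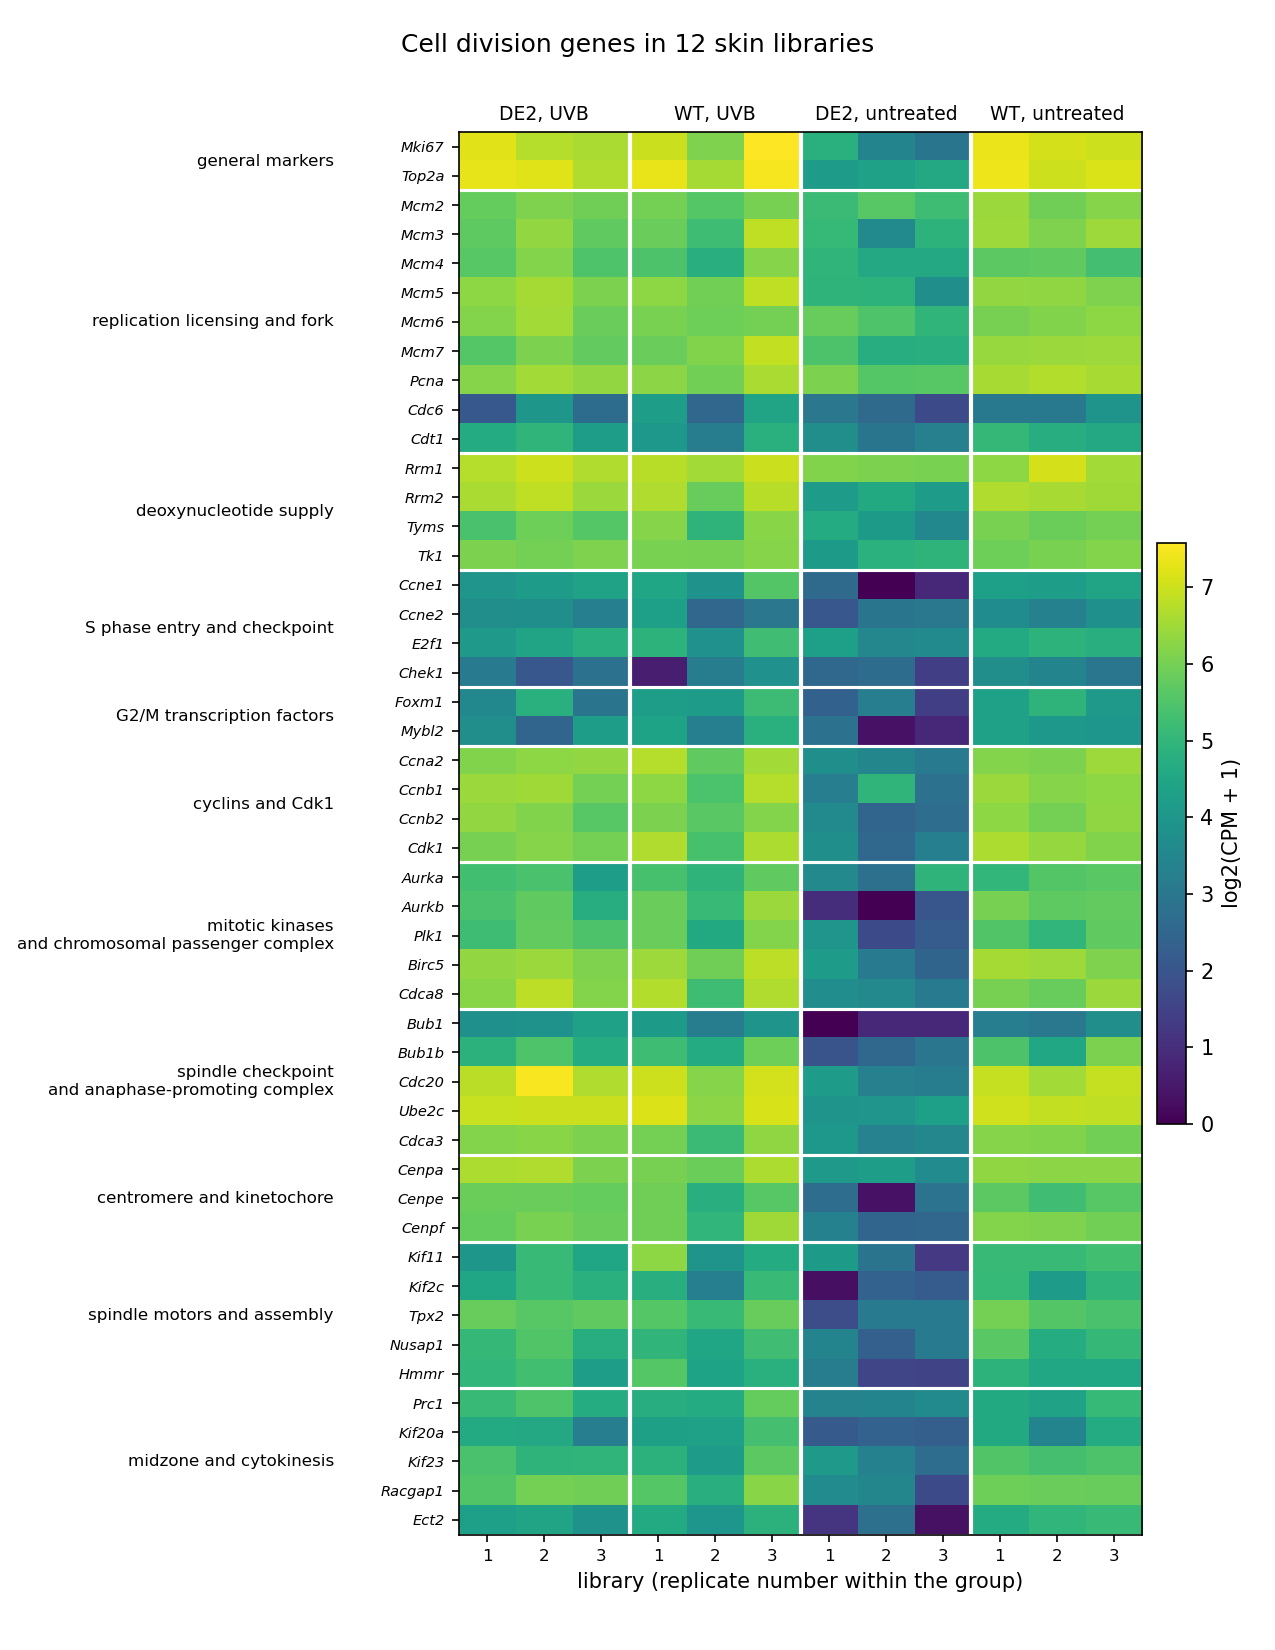
Level of each of the 48 genes (lines, grouped by role) as log2(CPM + 1) in the 12 libraries, in columns by group. The 3 untreated DE2 columns are darker than the untreated WT columns in every line, least so for Rrm1, Mcm6 and Pcna.

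Log2 fold changes at the untreated site were further below 0 for mitosis genes than for replication genes. All 27 mitosis genes fell in untreated DE2 skin against untreated WT, with a median log2 fold change of -2.88 and a range of -5.36 to -1.32. Of the 17 replication and S phase genes 11 fell, with a median of -1.28 and a range of -3.19 to -0.59. Within a library the summed mitosis genes were 1.79, 1.65 and 1.59 times the summed replication genes in irradiated DE2 skin, 1.84, 1.37 and 1.60 times in irradiated WT skin, 0.555, 0.506 and 0.524 times in untreated DE2, and 1.66, 1.39 and 1.63 times in untreated WT. The ratio in untreated DE2 libraries lay below that of every other library. A two-sided exact permutation test gave p = 0.1 for untreated DE2 against untreated WT and for irradiated against untreated DE2, which is the smallest p that 3 against 3 libraries allow. The same exact test gave p = 0.8 for DE2 against WT with UVB and p = 1.0 for UVB against untreated in WT. A ratio taken within a library does not move with the scaling between libraries.

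**Figure D2:**
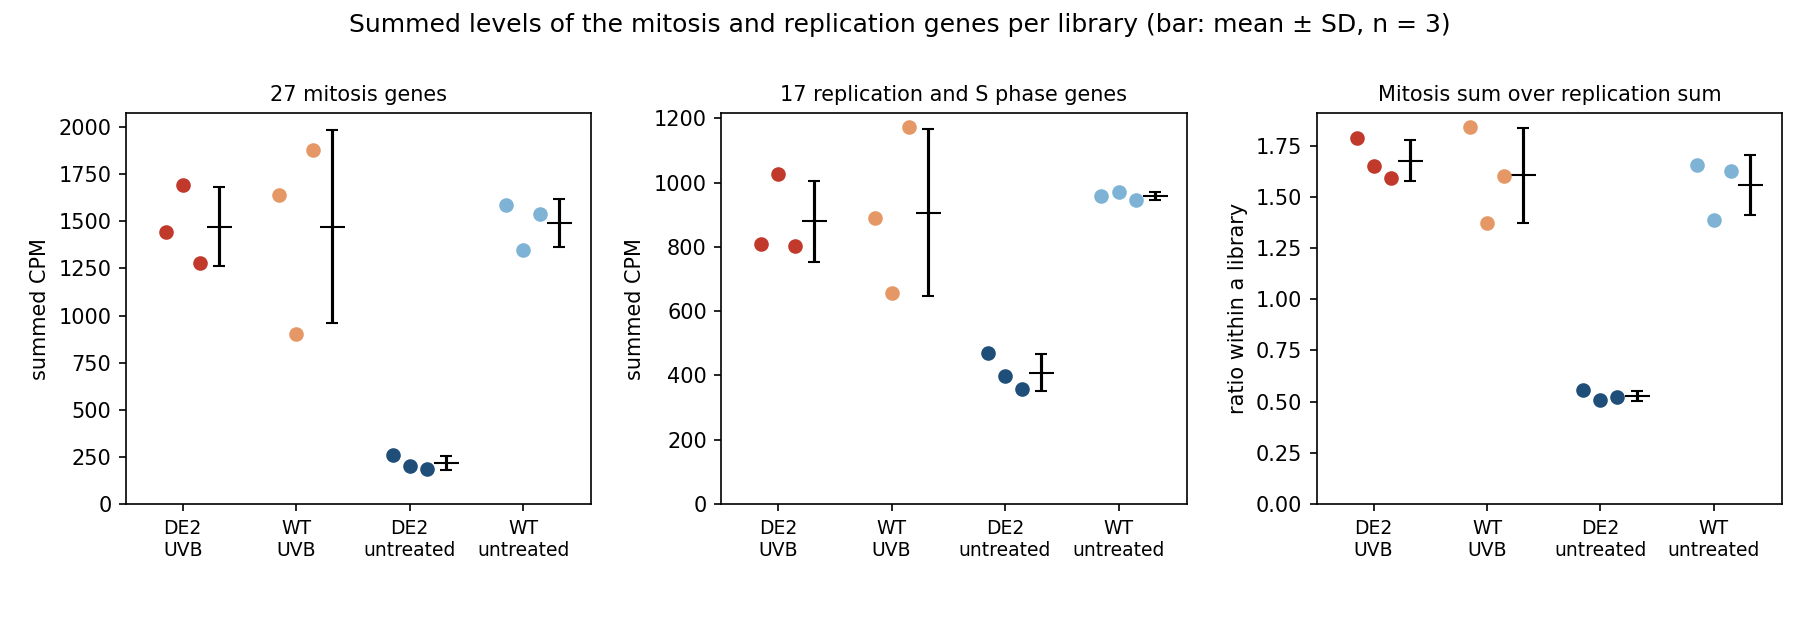
Summed CPM of the 27 mitosis genes and of the 17 replication and S phase genes, and the ratio of both sums, for each library (points) with the mean ± SD of each group (bars, n = 3). The untreated DE2 libraries are lowest in all 3 panels, at 0.506 to 0.555 in the ratio.

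Promoter sequences were compared between replication and mitosis genes. RefSeq promoter windows of 300 bases (250 before to 50 after the start, build GRCm38.p6) were matched for 41 of the 48 genes. For a gene with several starts the first one listed was used, which need not be the outermost. Foxm1, Aurkb, Kif20a, Ccna2, Ccne2, Tpx2 and Mcm4 had no match. Both strands were searched, with sites allowed to overlap, for the CCAAT box (CCAAT), for the CHR (TTTGAA or TTTAAA) and for E2F words (TTTCCCGC, TTTCGCGC, TTTGGCGC or TTTGCCGC). At least 1 CCAAT box lay in 87.0% of mitosis promoters (20 of 23) and 53.3% of replication promoters (8 of 15), against 37.9% of 27025 promoters of all genes. A CHR lay in 91.3% of mitosis and 33.3% of replication promoters, against 27.8% of all. An E2F word lay in 4.3% of mitosis and 40.0% of replication promoters, against 2.3% of all. Both a CCAAT box and a CHR lay in 82.6% of mitosis promoters, in 3 of 15 replication promoters and in 10.9% of all promoters. As a description, log2 fold changes in untreated DE2 against WT skin had a median of -2.78 in the 28 genes with a CHR. The 13 without one had a median of -1.45. Their ranges overlapped, at -3.59 to -0.89 and -4.03 to -0.59. Mitosis genes made up 21 of the 28, so this split largely repeats that into mitosis and replication genes. Medians were -2.54 with a CCAAT box and -1.86 without, and -1.5 with an E2F word and -2.59 without. A letter match is not shown to be a bound site, and a window without one says only that those letters are not in it.

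The 150 bases upstream of the start are shown for the mitosis and the replication promoters of the highest mean count that hold such a word, with matches in capitals. Ube2c and Cdc20 stand for the mitosis genes, and Rrm1 and Pcna for the replication genes. Mcm6, with 3 E2F matches, and Cdk1, the mitosis gene with an E2F word, were chosen after the matches were seen.
Ube2c (chr2:164769779-164769928, plus strand): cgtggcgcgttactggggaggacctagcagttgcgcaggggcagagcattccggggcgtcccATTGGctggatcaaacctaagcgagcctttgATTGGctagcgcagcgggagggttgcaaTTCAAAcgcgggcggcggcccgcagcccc
Cdc20 (chr4:118437344-118437493, minus strand): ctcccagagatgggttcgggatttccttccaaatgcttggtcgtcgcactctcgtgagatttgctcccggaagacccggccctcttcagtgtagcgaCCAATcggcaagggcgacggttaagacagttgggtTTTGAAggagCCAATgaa
Cdk1 (chr10:69352913-69353062, minus strand): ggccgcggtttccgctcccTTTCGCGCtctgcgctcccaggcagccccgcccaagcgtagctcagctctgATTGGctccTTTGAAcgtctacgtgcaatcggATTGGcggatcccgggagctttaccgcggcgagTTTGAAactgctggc
Rrm1 (chr7:102441545-102441694, plus strand): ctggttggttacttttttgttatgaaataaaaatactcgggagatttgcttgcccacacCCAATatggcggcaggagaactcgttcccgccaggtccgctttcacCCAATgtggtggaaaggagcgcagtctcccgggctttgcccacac
Pcna (chr2:132253181-132253330, minus strand): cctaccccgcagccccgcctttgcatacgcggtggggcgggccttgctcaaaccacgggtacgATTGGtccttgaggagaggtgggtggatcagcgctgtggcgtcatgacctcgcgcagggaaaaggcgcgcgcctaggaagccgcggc
Mcm6 (chr1:128359706-128359855, minus strand): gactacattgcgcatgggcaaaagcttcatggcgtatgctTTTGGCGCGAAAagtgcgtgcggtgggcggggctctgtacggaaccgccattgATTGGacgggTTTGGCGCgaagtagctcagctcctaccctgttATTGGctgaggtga
In the Ube2c stretch the capitals are a pair of CCAAT boxes read on the other strand (ATTGG), followed by a CHR on the other strand (TTCAAA) that begins 29 bases before the start. Cdc20 has a CHR at 18 bases before the start, between its CCAAT boxes. In the printed stretch of Cdk1 an E2F word at 131 bases before the start lies farther out than the CCAAT boxes and CHRs. Rrm1 shows a pair of CCAAT boxes and Pcna a single one. Mcm6 also has CCAAT boxes, and its longest capital run is a pair of E2F words on opposite strands that overlap.

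The general markers Mki67 and Top2a followed the sum of the list. Mki67 encodes the Ki-67 protein that coats mitotic chromosomes, and Top2a encodes the topoisomerase that untangles sister DNA. Mki67 (chromosome 7) was at 149, 106 and 97.0 CPM in irradiated DE2 libraries, 125, 68.1 and 191 CPM in irradiated WT libraries, 27.1, 9.62 and 6.67 CPM in untreated DE2 libraries and 165, 136 and 128 CPM in untreated WT libraries. Top2a (chromosome 11) was at 157, 148 and 101 CPM in irradiated DE2 libraries, 160, 94.0 and 176 CPM in irradiated WT libraries, 17.3, 19.2 and 23.1 CPM in untreated DE2 libraries and 165, 127 and 141 CPM in untreated WT libraries. For both genes the untreated DE2 libraries lay below all 9 others, and the other 3 groups overlapped. DE2 against WT at the untreated site gave a log2 fold change of -3.29 ± 0.46 for Mki67 (adjusted p = 0.000247) and -2.86 ± 0.27 for Top2a (adjusted p = 3.61e-06). UVB against untreated in DE2 gave 3.01 ± 0.46 for Mki67 (adjusted p = 0.000386) and 2.77 ± 0.27 for Top2a (adjusted p = 4.79e-06).

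Among the 9 genes of replication licensing and the fork, which build the Mcm helicase and the sliding clamp, 7 fell in untreated DE2 skin against WT and 7 rose with UVB in DE2. Pcna, the sliding clamp, was at 72.9, 91.5 and 81.3 CPM in irradiated DE2 libraries, 76.2, 61.0 and 97.3 CPM in irradiated WT libraries, 66.8, 47.3 and 47.8 CPM in untreated DE2 libraries and 94.7, 104 and 94.4 CPM in untreated WT libraries. Its untreated DE2 levels overlapped those of irradiated WT skin and lay below the untreated WT ones. The log2 fold change of Pcna was -0.86 ± 0.21 at the untreated site (adjusted p = 0.0104) and 0.60 ± 0.22 with UVB in DE2 (adjusted p = 0.0492). Mcm5, a helicase subunit, was at 77.0, 93.7 and 67.4 CPM in irradiated DE2 libraries, 77.3, 61.0 and 115 CPM in irradiated WT libraries, 29.2, 29.1 and 12.8 CPM in untreated DE2 libraries and 81.0, 79.2 and 68.4 CPM in untreated WT libraries. Here the untreated DE2 libraries were apart from all others, with log2 fold changes of -1.68 ± 0.31 at the untreated site (adjusted p = 0.00148) and 1.74 ± 0.31 with UVB in DE2 (adjusted p = 0.000893).

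The helicase subunits did not move alike. DE2 against WT at the untreated site gave a log2 fold change of -1.73 ± 0.41 for Mcm3, -1.45 ± 0.28 for Mcm7, -0.89 ± 0.22 for Mcm2 and -0.70 ± 0.24 for Mcm6, all 4 past the threshold. Mcm4 missed it at -0.90 ± 0.33 (adjusted p = 0.0621) with levels of 30.0, 22.6 and 23.1 CPM in untreated DE2 libraries, against 50.3, 51.7 and 39.0 CPM in untreated WT libraries. With UVB in DE2, Mcm4 rose by a log2 fold change of 1.12 ± 0.33 (adjusted p = 0.0206), while Mcm2 had 0.62 ± 0.22 (adjusted p = 0.0506). Cdc6, which loads the helicase on origins, passed in neither comparison. It was at 3.26, 15.0 and 5.47 CPM in irradiated DE2 libraries, 17.5, 4.67 and 20.4 CPM in irradiated WT libraries, 7.07, 5.09 and 2.22 CPM in untreated DE2 libraries and 7.40, 7.46 and 14.2 CPM in untreated WT libraries, a level with few counts and with groups that overlap apart from the untreated pair. Cdt1, its partner in loading, fell at the untreated site, at a log2 fold change of -1.50 ± 0.42 (adjusted p = 0.0186), and rose by 1.36 ± 0.42 with UVB in DE2 (adjusted p = 0.026).

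Of the 4 genes that supply deoxynucleotides 3 fell at the untreated site, to unequal extents. Rrm1 and Rrm2 encode the large and the small subunit of ribonucleotide reductase. Rrm1 was at 106, 127 and 101 CPM in irradiated DE2 libraries, 109, 92.2 and 125 CPM in irradiated WT libraries, 69.2, 67.1 and 65.0 CPM in untreated DE2 libraries and 77.3, 135 and 91.7 CPM in untreated WT libraries. Rrm2 was at 96.8, 115 and 86.8 CPM in irradiated DE2 libraries, 102, 55.8 and 108 CPM in irradiated WT libraries, 16.8, 23.5 and 17.2 CPM in untreated DE2 libraries and 102, 95.1 and 89.0 CPM in untreated WT libraries. The untreated DE2 libraries were below every other library for both, by a wide gap for Rrm2 and a narrow gap for Rrm1. At the untreated site the log2 fold change was -2.32 ± 0.26 for Rrm2 (adjusted p = 2.16e-05) and -0.59 ± 0.22 for Rrm1, which did not pass (adjusted p = 0.0589). With UVB in DE2 both rose, Rrm2 by 2.38 ± 0.26 (adjusted p = 1.66e-05) and Rrm1 by 0.73 ± 0.22 (adjusted p = 0.0203). Tyms, which makes thymidylate, and Tk1, which salvages thymidine, fell at the untreated site, at log2 fold changes of -1.86 ± 0.35 and -1.40 ± 0.23, and rose by 1.51 ± 0.35 and 1.42 ± 0.23 with UVB in DE2, all past the threshold.

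Of the 4 genes of S phase entry and its checkpoint, Ccne1 alone passed in either comparison. Ccne1, a cyclin of the G1/S step, was at 14.4, 16.9 and 19.7 CPM in irradiated DE2 libraries, 21.6, 14.0 and 46.2 CPM in irradiated WT libraries, 5.12, 0 and 0.834 CPM in untreated DE2 libraries and 18.3, 17.9 and 20.6 CPM in untreated WT libraries. Untreated DE2 libraries held few counts of it, 21, 0 and 3, and lay below all others. The log2 fold change of Ccne1 was -3.19 ± 0.74 at the untreated site (adjusted p = 0.00648) and 3.03 ± 0.74 with UVB in DE2 (adjusted p = 0.00707). E2f1, a transcription factor of S phase genes, was at 15.8, 20.3 and 26.6 CPM in irradiated DE2 libraries, 29.0, 13.3 and 37.1 CPM in irradiated WT libraries, 18.5, 10.5 and 11.1 CPM in untreated DE2 libraries and 23.9, 28.7 and 26.3 CPM in untreated WT libraries. Its log2 fold change was -0.97 ± 0.38 at the untreated site (adjusted p = 0.0809) and 0.64 ± 0.39 with UVB in DE2 (adjusted p = 0.246), with irradiated DE2 and untreated DE2 levels that overlapped. The related cyclin gene Ccne2 had -0.98 ± 0.53 at the untreated site (adjusted p = 0.204), and the checkpoint kinase gene Chek1 had -1.28 ± 0.78 (adjusted p = 0.265).

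Foxm1 and Mybl2, transcription factors that switch on mitosis genes, fell in untreated DE2 skin. Foxm1 was at 10.6, 26.9 and 6.56 CPM in irradiated DE2 libraries, 18.1, 16.7 and 35.6 CPM in irradiated WT libraries, 4.14, 8.49 and 1.67 CPM in untreated DE2 libraries and 19.4, 29.4 and 16.3 CPM in untreated WT libraries. Mybl2, the gene of B-Myb, was at 12.5, 4.60 and 18.2 CPM in irradiated DE2 libraries, 20.00, 8.61 and 27.4 CPM in irradiated WT libraries, 6.09, 0.283 and 0.834 CPM in untreated DE2 libraries and 19.4, 15.6 and 14.8 CPM in untreated WT libraries. Irradiated DE2 libraries overlapped the untreated DE2 ones in both genes. Against untreated WT the log2 fold change was -2.18 ± 0.60 for Foxm1 (adjusted p = 0.0169) and -2.73 ± 0.77 for Mybl2 (adjusted p = 0.0193). With UVB in DE2 it was 1.64 ± 0.60 for Foxm1 (adjusted p = 0.0542) and 2.22 ± 0.77 for Mybl2 (adjusted p = 0.0439), so that Mybl2 alone passed.

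All 4 genes of the mitotic cyclins and Cdk1 fell at the untreated site and rose with UVB in DE2. Ccnb1 encodes cyclin B1, the activator of Cdk1. It was at 85.1, 90.5 and 63.4 CPM in irradiated DE2 libraries, 77.3, 42.3 and 106 CPM in irradiated WT libraries, 8.53, 30.3 and 6.11 CPM in untreated DE2 libraries and 86.0, 72.2 and 78.2 CPM in untreated WT libraries. Replicate 2 of untreated DE2 stood above the others of its group. Ccna2, cyclin A2, was at 69.6, 78.2 and 80.2 CPM in irradiated DE2 libraries, 105, 52.6 and 90.6 CPM in irradiated WT libraries, 12.7, 10.2 and 7.50 CPM in untreated DE2 libraries and 71.0, 66.9 and 87.3 CPM in untreated WT libraries. At the untreated site the log2 fold change of DE2 against WT was -2.88 ± 0.29 for Ccna2 (adjusted p = 6.79e-06), -2.40 ± 0.47 for Ccnb1 (adjusted p = 0.00279), -3.33 ± 0.33 for Ccnb2 and -3.26 ± 0.38 for Cdk1. With UVB in DE2 the values were 2.90 ± 0.29, 2.42 ± 0.48, 3.19 ± 0.33 and 2.91 ± 0.37 in the same order of genes. Processed copies of Ccnb1, Ccnb2, Pcna and Tyms are annotated, and counts of these 4 genes could hold reads of the copies or lack shared reads.

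The 5 mitotic kinases and subunits of the chromosomal passenger complex all fell at the untreated site, and 4 of them rose with UVB in DE2. Birc5, survivin, was at 81.3, 85.4 and 68.2 CPM in irradiated DE2 libraries, 87.9, 60.0 and 113 CPM in irradiated WT libraries, 17.3, 7.92 and 4.45 CPM in untreated DE2 libraries and 94.3, 88.1 and 68.0 CPM in untreated WT libraries. Cdca8, borealin, was at 74.0, 112 and 71.1 CPM in irradiated DE2 libraries, 104, 36.7 and 101 CPM in irradiated WT libraries, 12.2, 10.8 and 7.50 CPM in untreated DE2 libraries and 64.0, 55.5 and 86.3 CPM in untreated WT libraries. Untreated DE2 was lowest for both, with no overlap with another group. Their log2 fold changes at the untreated site were -3.06 ± 0.38 (adjusted p = 5.73e-05) and -2.75 ± 0.38 (adjusted p = 0.00015), and with UVB in DE2 they were 2.97 ± 0.38 (adjusted p = 6.6e-05) and 3.07 ± 0.38 (adjusted p = 4.8e-05). Both pair with the kinase of Aurkb, which had the lowest fitted log2 fold change of the 48 at the untreated site. Aurkb was at 41.1, 52.5 and 25.5 CPM in irradiated DE2 libraries, 57.0, 33.9 and 85.7 CPM in irradiated WT libraries, 0.975, 0 and 3.06 CPM in untreated DE2 libraries and 64.0, 51.5 and 53.2 CPM in untreated WT libraries, with 4, 0 and 11 counts in the untreated DE2 libraries, and the fitted value was -5.36 ± 0.61 (adjusted p = 2.34e-05). At such counts a fitted fold change rests on few reads. Plk1, a kinase of spindle assembly, fell at a log2 fold change of -2.63 ± 0.55. Aurka, the kinase of the spindle poles, was at 37.8, 41.1 and 17.9 CPM in irradiated DE2 libraries, 40.5, 29.8 and 52.3 CPM in irradiated WT libraries, 10.97, 5.94 and 29.5 CPM in untreated DE2 libraries and 31.3, 46.4 and 48.8 CPM in untreated WT libraries. Replicate 3 of untreated DE2 was within the range of irradiated DE2, and the log2 fold change with UVB in DE2 was 1.07 ± 0.47 (adjusted p = 0.108), against -1.45 ± 0.47 at the untreated site (adjusted p = 0.0383).

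All 5 genes of the spindle checkpoint and the anaphase-promoting complex fell at the untreated site and rose with UVB in DE2. Ube2c encodes the ubiquitin-conjugating enzyme of that complex and Cdc20 its activator, and the promoters of both carry CCAAT boxes and a CHR as printed above. Ube2c was at 122, 125 and 125 CPM in irradiated DE2 libraries, 145, 75.3 and 140 CPM in irradiated WT libraries, 14.1, 14.4 and 18.3 CPM in untreated DE2 libraries and 130, 118 and 115 CPM in untreated WT libraries. Cdc20 was at 110, 181 and 101 CPM in irradiated DE2 libraries, 126, 73.3 and 133 CPM in irradiated WT libraries, 17.3, 8.77 and 8.06 CPM in untreated DE2 libraries and 119, 90.9 and 119 CPM in untreated WT libraries. Both were low in the 3 untreated DE2 libraries and overlapped among the other groups. Ube2c had a log2 fold change of -2.95 ± 0.25 at the untreated site (adjusted p = 1.46e-06) and of 2.99 ± 0.25 with UVB in DE2 (adjusted p = 1.6e-06). For Cdc20 the values were -3.26 ± 0.34 (adjusted p = 1.23e-05) and 3.51 ± 0.35 (adjusted p = 6.26e-06). Ube2c shares exon bases on the opposite strand with Tnnc2, a troponin gene of skeletal muscle, and the strand setting of the counting was not given in the sources used here. Tnnc2 moved the other way, at 14.9, 25.7 and 34.2 CPM in untreated DE2 libraries, against 8.71, 5.59 and 10.01 CPM in untreated WT libraries, a log2 fold change of 1.61 ± 0.50 (adjusted p = 0.0295). It belongs to a list of 12 skeletal muscle markers that summed to a mean of 94339 CPM in untreated DE2 skin, and made up little of that sum. Whether either gene lost or gained reads at the shared bases was not tested. The checkpoint kinase genes Bub1 and Bub1b and the mitotic entry gene Cdca3 fell at log2 fold changes of -4.03 ± 0.68, -3.17 ± 0.48 and -2.52 ± 0.30, Bub1 with 6 counts in all over the untreated DE2 libraries.

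The 3 genes of the centromere and kinetochore fell and rose with the others. Cenpa, the histone H3 variant that marks centromeres, was at 99.6, 101 and 67.4 CPM in irradiated DE2 libraries, 63.8, 58.3 and 99.4 CPM in irradiated WT libraries, 16.1, 17.8 and 11.7 CPM in untreated DE2 libraries and 79.7, 76.7 and 76.1 CPM in untreated WT libraries. Cenpf, a large kinetochore protein gene, was at 54.1, 65.8 and 56.9 CPM in irradiated DE2 libraries, 59.7, 30.7 and 89.7 CPM in irradiated WT libraries, 9.02, 4.53 and 4.72 CPM in untreated DE2 libraries and 70.7, 67.8 and 61.5 CPM in untreated WT libraries. Both kept untreated DE2 below every other library. At the untreated site the log2 fold change was -2.35 ± 0.26 for Cenpa (adjusted p = 2.19e-05), -3.43 ± 0.38 for Cenpf (adjusted p = 1.75e-05) and -3.45 ± 0.53 for Cenpe, a kinetochore motor gene (adjusted p = 0.000386). With UVB in DE2 it was 2.56 ± 0.27, 3.26 ± 0.38 and 3.76 ± 0.53 for the same genes.

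Spindle motor and assembly genes numbered 5, and all fell at the untreated site. Tpx2, which targets Aurora A to the spindle, was at 56.0, 47.7 and 51.8 CPM in irradiated DE2 libraries, 47.4, 33.7 and 55.0 CPM in irradiated WT libraries, 2.44, 7.64 and 7.78 CPM in untreated DE2 libraries and 62.5, 46.4 and 41.5 CPM in untreated WT libraries. Nusap1, a microtubule binder of the spindle, was at 31.8, 44.8 and 25.5 CPM in irradiated DE2 libraries, 30.1, 21.6 and 37.4 CPM in irradiated WT libraries, 9.75, 3.96 and 7.50 CPM in untreated DE2 libraries and 49.2, 24.9 and 32.3 CPM in untreated WT libraries. The log2 fold change at the untreated site was -3.08 ± 0.37 for Tpx2 (adjusted p = 3.77e-05) and -2.32 ± 0.39 for Nusap1 (adjusted p = 0.000877), and with UVB in DE2 it was 3.13 ± 0.37 (adjusted p = 3.04e-05) and 2.26 ± 0.39 (adjusted p = 8e-04). Kif2c, a microtubule-shortening motor gene, and Hmmr, a hyaluronan receptor gene whose protein also binds the spindle, had -3.32 ± 0.65 and -2.56 ± 0.52 at the untreated site. Kif11, the motor that pushes spindle poles apart, was the exception with UVB. It was at 15.2, 33.9 and 21.1 CPM in irradiated DE2 libraries, 76.7, 14.3 and 24.3 CPM in irradiated WT libraries, 16.6, 6.51 and 1.39 CPM in untreated DE2 libraries and 34.4, 33.6 and 37.9 CPM in untreated WT libraries, with replicate 1 of irradiated WT far above the other libraries, and UVB in DE2 gave 1.51 ± 0.69 (adjusted p = 0.124).

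Genes of the spindle midzone and of cytokinesis, 5 in number, fell at the untreated site and rose with UVB in DE2 throughout. Racgap1 and Kif23 encode the centralspindlin complex. Racgap1 was at 45.2, 63.2 and 59.8 CPM in irradiated DE2 libraries, 47.1, 26.8 and 74.8 CPM in irradiated WT libraries, 11.7, 10.2 and 2.22 CPM in untreated DE2 libraries and 58.8, 56.1 and 55.0 CPM in untreated WT libraries. Kif23 was at 41.6, 29.8 and 30.3 CPM in irradiated DE2 libraries, 28.5, 16.7 and 49.6 CPM in irradiated WT libraries, 16.3, 9.06 and 5.56 CPM in untreated DE2 libraries and 44.8, 40.1 and 43.4 CPM in untreated WT libraries. Untreated DE2 was lowest in both, and replicate 1 of untreated DE2 reached close to replicate 2 of irradiated WT for Kif23. The log2 fold change at the untreated site was -2.80 ± 0.46 for Racgap1 (adjusted p = 0.000641) and -2.04 ± 0.41 for Kif23 (adjusted p = 0.00303), and with UVB in DE2 it was 2.79 ± 0.46 (adjusted p = 0.000513) and 1.71 ± 0.41 (adjusted p = 0.00683). At the untreated site the cytokinesis gene Ect2 had -3.59 ± 0.62, the midzone kinesin gene Kif20a -2.31 ± 0.51, and Prc1, the midzone bundler, -1.32 ± 0.37, the smallest fall among the 27 mitosis genes.

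**Figure D3:**
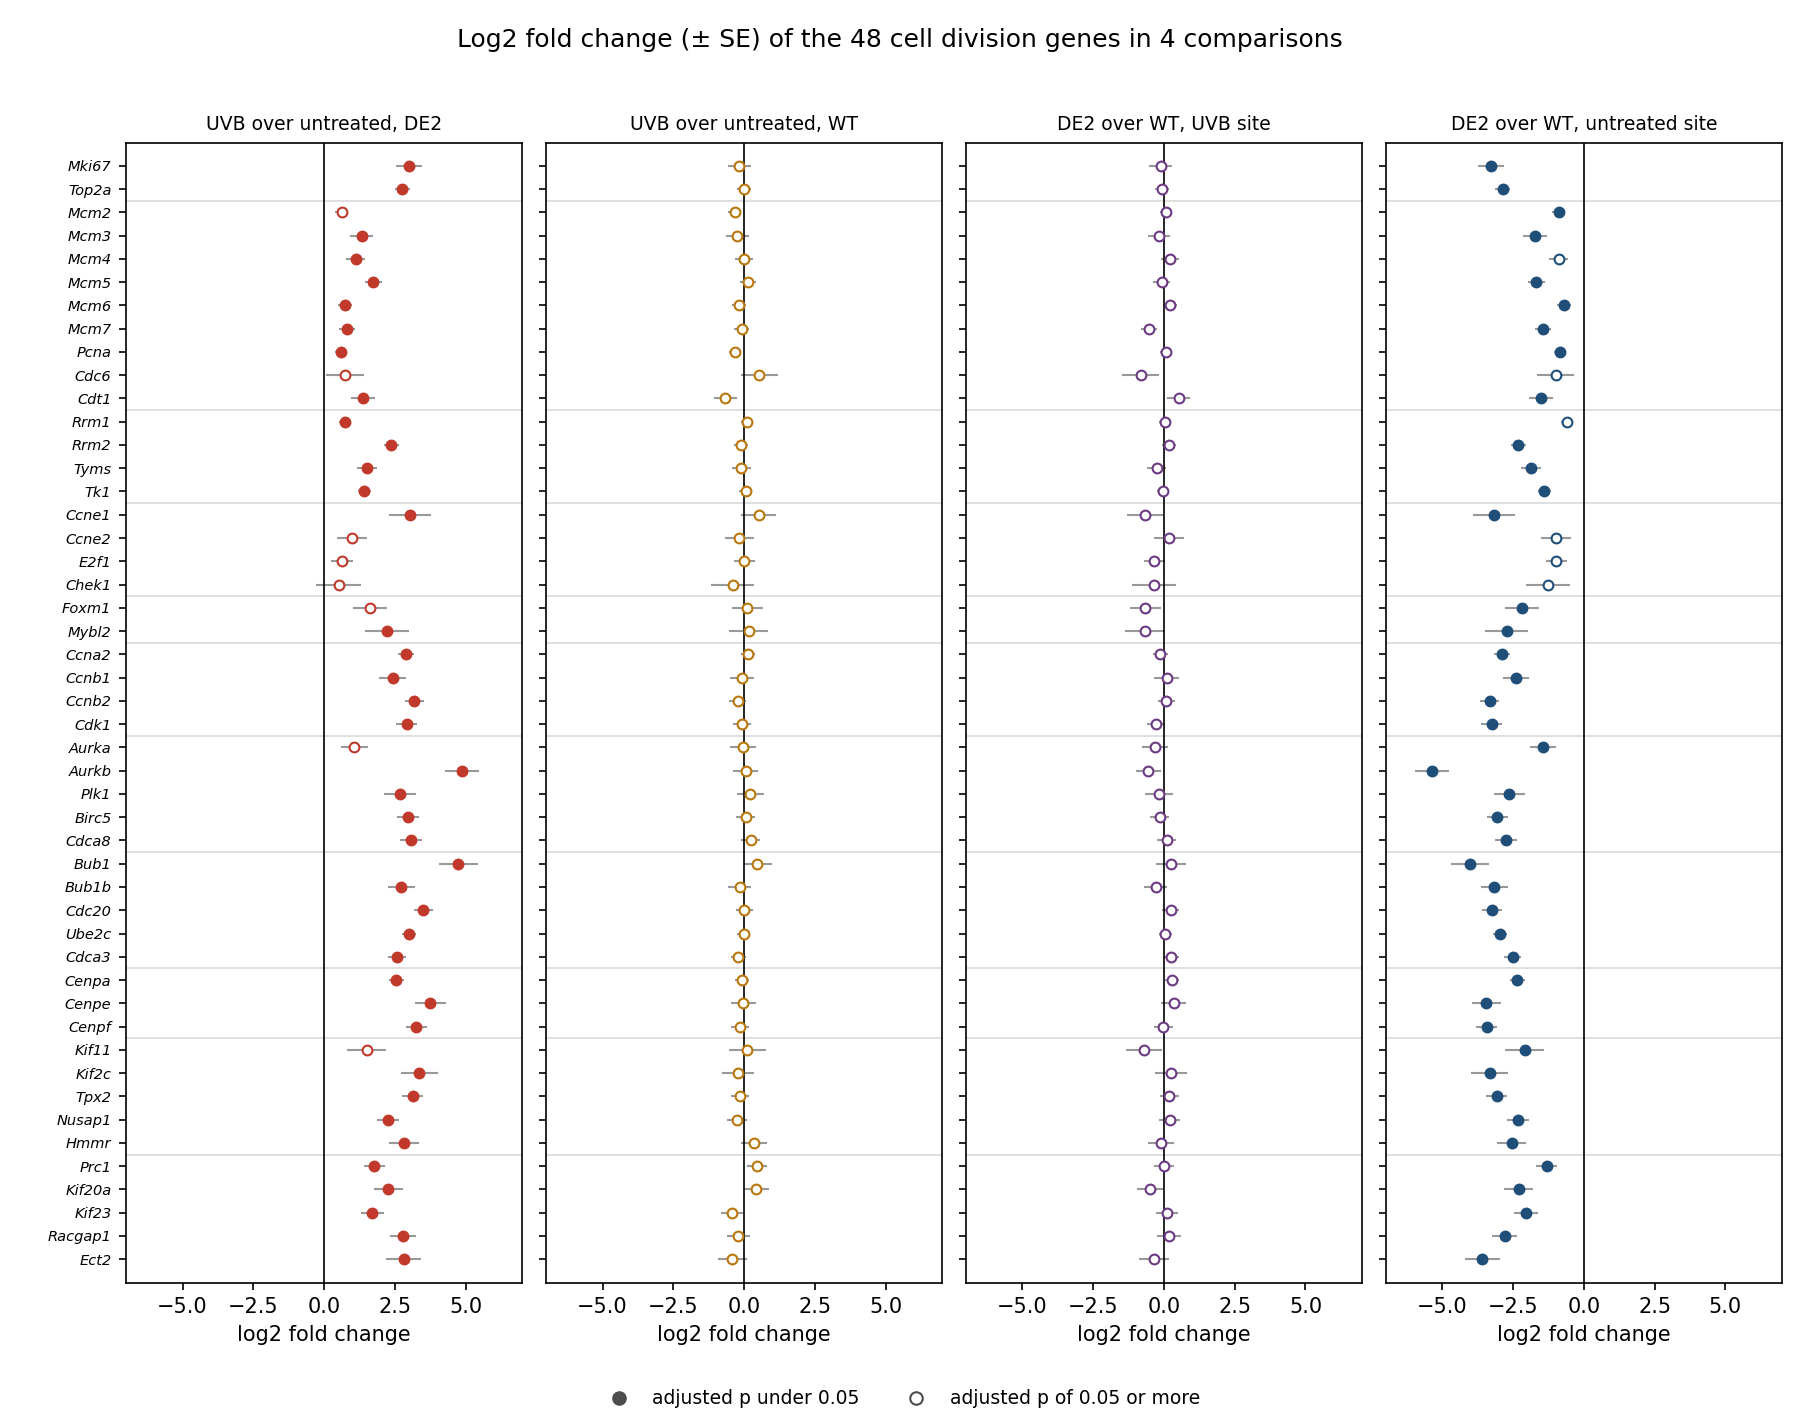
Log2 fold change (points) ± SE (lines) of each of the 48 genes for UVB over untreated in DE2 and in WT and for DE2 over WT at the UVB site and at the untreated site, with filled points for adjusted p under 0.05. The first panel has 40 filled points, all positive, the last has 42, all negative, and both middle panels have none.

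In WT skin none of the 48 genes passed for UVB against untreated in edgeR's quasi-likelihood test. At an unadjusted p under 0.05 in that test there were 0 of the 48 and 689 of all 15126 genes. The counts in DESeq2 and limma voom were also 0, where 22 and 2 of all genes were called. Over all genes 0.0198% were called higher and 0% lower, so that few genes of any kind passed in that comparison. No member had its 3 irradiated WT libraries apart from the 3 untreated ones in either direction, where 4.85% of all genes were above and 5.25% below. The median log2 fold change of the 48 was -0.055, and 25 of them had a 95% interval that lay within 1 on the log2 scale in both directions. For Top2a the interval was -0.53 to 0.50, for Ube2c -0.49 to 0.46, and for Pcna -0.78 to 0.13. Intervals were wide for others, such as -2.02 to 1.22 for Chek1.

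Between the genotypes after UVB the 48 genes also gave 0 calls. At an unadjusted p under 0.05 in edgeR's quasi-likelihood test there were 0 of the 48 and 2262 of all 15126 genes. DESeq2 and limma voom also called 0 of the 48, against 876 and 586 of all genes. Over all genes 2.35% were called higher in irradiated DE2 than in irradiated WT skin and 0.608% lower. No member was separated between the 6 libraries, against 11.9% of all genes above and 9.35% below. The median log2 fold change was -0.026. The interval of 24 genes lay within 1 on the log2 scale, among them Rrm2 at -0.35 to 0.69 and Ccna2 at -0.67 to 0.42. Mcm7, at -0.54 ± 0.28, had the lowest unadjusted p, 0.0714 (edgeR's quasi-likelihood test). Replicate 2 of irradiated WT was the lowest of its group in 45 of the 48 genes, and its skeletal muscle markers averaged 10.7 on the log2 CPM scale, against 9.84 and 8.62 in the other irradiated WT libraries. Without it the median log2 fold change of the 48 was -0.26 for DE2 against WT with UVB and 0.21 for UVB in WT, and the calls were 0 in both.

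The difference of the UVB responses between genotypes was tested as an interaction. It passed for 30 of the 48 genes, all with a larger log2 fold change in DE2 than in WT, where 5.64% of all genes passed in that direction and 4.84% in the other. The median interaction was 2.47. Of the mitosis genes 23 of 27 passed and of the replication and S phase genes 5 of 17. Aurka, Kif11, Prc1 and Kif20a were the mitosis genes that did not pass. Cdc20 gave 3.50 ± 0.45 (adjusted p = 0.00024), Ube2c 3.00 ± 0.33 (adjusted p = 7.26e-05) and Rrm2 2.49 ± 0.35 (adjusted p = 0.000501). Pcna had 0.92 ± 0.30 (adjusted p = 0.0634) and Mcm2 0.96 ± 0.31 (adjusted p = 0.0643), neither past the threshold. The interaction holds the low untreated DE2 level as 1 of its 4 terms.

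Per kilobase of annotated exon, the order of the 48 genes differed between the groups. In untreated WT skin Cdc20 came highest at 58.7 ± 8.74 CPM per kilobase, before Ccnb2 at 47.7 ± 5.50, Ube2c at 46.6 ± 2.90 and Pcna at 40.7 ± 2.25 (SD, n = 3 each). Cdc20, Ccnb2 and Ube2c overlapped in their ranges there. In untreated DE2 skin Pcna was highest at 22.5 ± 4.63 CPM per kilobase, with no overlap with Mcm6, the next at 9.28 ± 2.74, and Cdc20 stood at 6.09 ± 2.75. The range of Mcm6 overlapped those of Mcm7, Mcm4 and Rrm2, which came next. These are levels, and the union of all annotated exons was taken as the length.

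Other genes of the cell cycle were taken from 4 lists. Of 48 other mitosis genes 37 fell in untreated DE2 skin against WT and 1 rose, with a median log2 fold change of -2.44. Cks1b, a Cdk1 subunit, fell at a log2 fold change of -2.28 ± 0.21 (adjusted p = 3.12e-06) and Hjurp, the chaperone of Cenpa, at -0.99 ± 0.22 (adjusted p = 0.00506). The checkpoint gene Bub3 had -0.03 ± 0.22 (adjusted p = 0.947), and Pttg1, securin, rose by 1.25 ± 0.32 (adjusted p = 0.0116). Of 46 other replication genes tested 20 fell and 0 rose, with a median of -1.05. The most abundant of them were Rpa1 at 0.36 ± 0.22 (adjusted p = 0.268), Rfc2 at -0.65 ± 0.22 (adjusted p = 0.0466), Rfc1 at -0.29 ± 0.23 (adjusted p = 0.4) and the histone mRNA binder Slbp at -0.80 ± 0.27 (adjusted p = 0.0441). With UVB in DE2, 38 of the other mitosis genes and 15 of the other replication genes rose and none fell. The interaction passed for 31 and 6 of them, and DE2 against WT with UVB for 0 of either list.

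**Figure D4:**
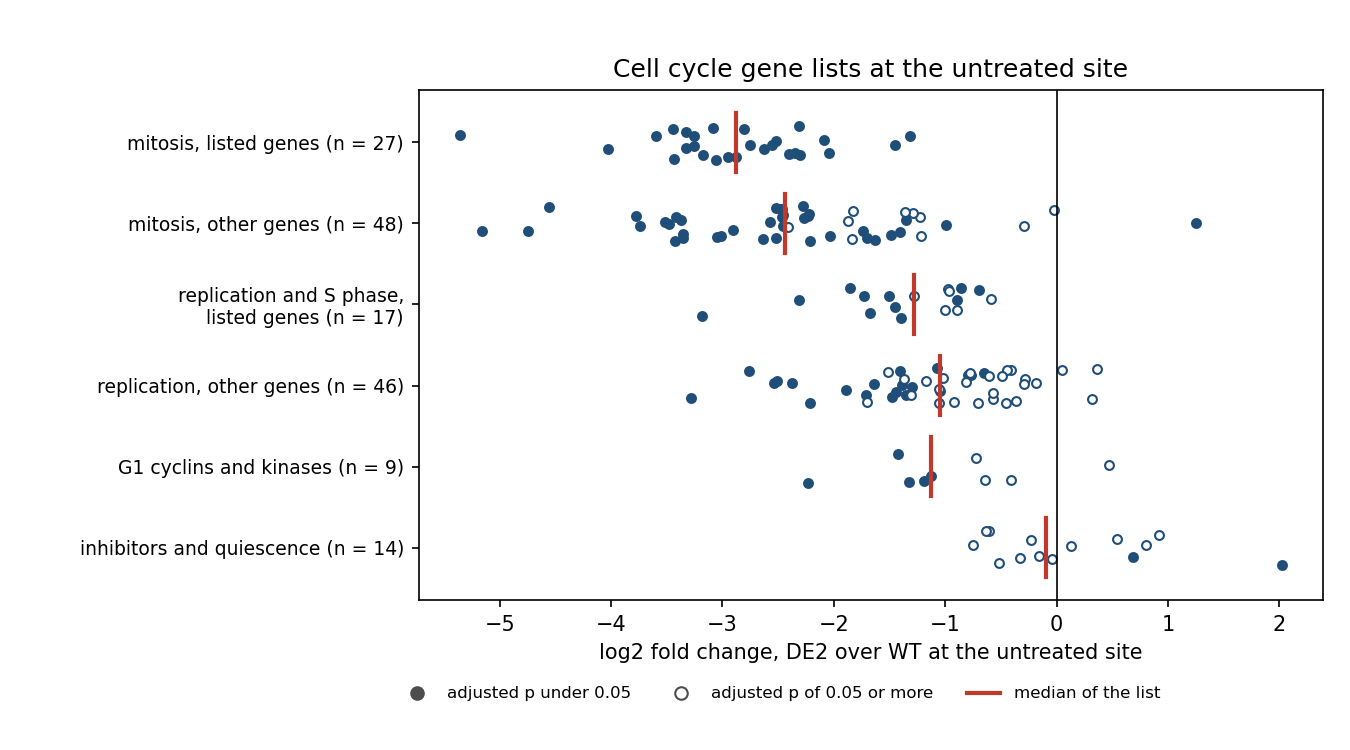
Log2 fold change of DE2 over WT at the untreated site for the listed genes and for 4 further cell cycle lists, 1 point per gene, filled for adjusted p under 0.05, with the median of each list in red. The medians are -2.88 and -2.44 for the mitosis lists, -1.28 and -1.05 for the replication lists, -1.13 for the G1 list and -0.10 for the inhibitors.

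Further lists held genes that act before S phase or hold it back. Of 9 G1 cyclins and kinases 5 fell at the untreated site and 0 rose, with a median log2 fold change of -1.13. They included Ccnd1, cyclin D1, at -1.42 ± 0.30 (adjusted p = 0.00391), Cdk4, its kinase, at -1.33 ± 0.19 (adjusted p = 0.000197), and Myc at -1.13 ± 0.33 (adjusted p = 0.0242). Ccnd2 had -0.73 ± 0.31 (adjusted p = 0.108). Of 14 inhibitors and quiescence genes 2 rose and 0 fell, a share near the 11.8% of all genes called higher. The 2 were Ccng1, a p53 target, at 2.02 ± 0.46 (adjusted p = 0.00631) and Tob1, an antiproliferative gene, at 0.68 ± 0.23 (adjusted p = 0.0444). Cdkn1a, the p21 inhibitor, averaged 583 ± 51.9 CPM in irradiated DE2, 600 ± 51.8 CPM in irradiated WT skin, 379 ± 36.4 CPM in untreated DE2 skin and 543 ± 100 CPM in untreated WT (SD, n = 3 each). It did not pass at the untreated site, at -0.52 ± 0.19 (adjusted p = 0.0618), and rose with UVB in DE2 by 0.62 ± 0.19 (adjusted p = 0.025).

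Hair follicle and melanocyte markers moved with the 48 genes in the comparisons with untreated DE2 skin, and skeletal muscle markers moved the other way. Between the genotypes after UVB, 5 of 22 hair follicle and 2 of 5 melanocyte markers fell in DE2 and 0 rose. Over all genes 0.608% were called lower there, and 0 of the 48 genes were called. All 22 hair follicle markers tested fell in untreated DE2 skin against untreated WT, with a median log2 fold change of -5.98, and all 22 rose with UVB in DE2. Their summed level was 11383 to 20979 CPM in irradiated DE2 libraries, 31776 to 39202 CPM in irradiated WT skin, 219 to 943 CPM in untreated DE2 skin and 16322 to 30184 CPM in untreated WT. Of these markers Shh, a signal of the hair bulb, was at 0 in all untreated DE2 libraries. The 5 melanocyte markers fell likewise, summing to 570 to 692 CPM in irradiated DE2, 766 to 1812 CPM in irradiated WT skin, 12.2 to 22.9 CPM in untreated DE2 skin and 1057 to 1176 CPM in untreated WT, with Tyr, the tyrosinase gene, at 0 in untreated DE2. Of 12 skeletal muscle markers 10 rose at the untreated site in DE2 and 0 fell, with sums of 22492 to 28615 CPM in irradiated DE2, 11699 to 52563 CPM in irradiated WT skin, 54618 to 123483 CPM in untreated DE2 skin and 24673 to 31833 CPM in untreated WT. The part of hair follicle, melanocyte and muscle RNA in the values of the 48 genes was not measured. Fits with the hair follicle or the muscle markers as a covariate are given further on. They cannot separate that part from the group, since untreated DE2 libraries stand apart in both markers.

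Basal epidermis markers did not fall with the cell division genes at the untreated site. The 8 markers, among them Krt5 and Krt14, summed to 16205 to 21450 CPM in irradiated DE2, 3725 to 4537 CPM in irradiated WT skin, 6198 to 11826 CPM in untreated DE2 skin and 4319 to 6100 CPM in untreated WT, and at the untreated site 1 of 8 rose and 0 fell. Krt14 made up most of the sum in irradiated DE2, at a mean of 15618 CPM. Under UVB in DE2, Krt14 rose, Krt15 and Col17a1 fell, and the median log2 fold change of the 8 was -0.050, while in irradiated DE2 against irradiated WT skin 4 rose and 1, Krt15, fell. The 4 wound keratins, such as Krt6a and Krt16, summed to 17090 to 22008 CPM in irradiated DE2, 2647 to 4171 CPM in irradiated WT skin, 615 to 967 CPM in untreated DE2 skin and 1179 to 1853 CPM in untreated WT, and 1 of 4 fell at the untreated site. Neutrophil markers summed to 4187 to 4559 CPM in irradiated DE2, 192 to 399 CPM in irradiated WT skin, 10.6 to 166 CPM in untreated DE2 skin and 35.3 to 56.5 CPM in untreated WT. Csf3r and Mmp8 were at 0 in untreated DE2, and 1 of the 7 neutrophil markers was at 0 in untreated WT. Irradiated DE2 skin was thus above irradiated WT skin in basal, wound and neutrophil sums, with no overlap, while the summed cell division genes of the same libraries were 2302 to 3006 CPM in irradiated DE2 and 1743 to 3483 CPM in irradiated WT. T and B lymphocyte markers were low throughout, at 21.1 to 41.4 CPM in irradiated DE2, 1.82 to 12.1 CPM in irradiated WT skin, 6.95 to 33.1 CPM in untreated DE2 skin and 5.63 to 16.3 CPM in untreated WT. Of these 9 genes 5 passed the filter on low counts. Cd4, Cd79b and Ms4a1 were at 0 in untreated DE2, and 1, 2 and 2 of the 9 in irradiated DE2, irradiated WT and untreated WT.

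With the mean log2 CPM of the hair follicle markers as a covariate, 0 of the 48 genes passed for UVB in DE2, for genotype at the untreated site or in the interaction, where the calls over all genes were 1, 0 and 1. With the muscle markers as the covariate, 18, 15 and 12 of the 48 passed, in the same directions as without it. The calls over all 15126 genes were then 756, 387 and 280. The median log2 fold change of the 48 kept its sign under both, at 1.23 for UVB in DE2, -1.06 at the untreated site and 1.54 in the interaction with the hair follicle covariate, and at 1.60, -1.56 and 1.59 with the muscle covariate. The hair follicle mean was 2.44 to 4.22 in untreated DE2 libraries and 7.77 to 9.76 in the other 9, so that this covariate and the group cannot be told apart. Irradiated DE2 libraries, at 11383 to 20979 CPM, lay below irradiated WT, at 31776 to 39202 CPM, in the hair follicle sum, while their cell division sums overlapped.

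**Figure D5:**
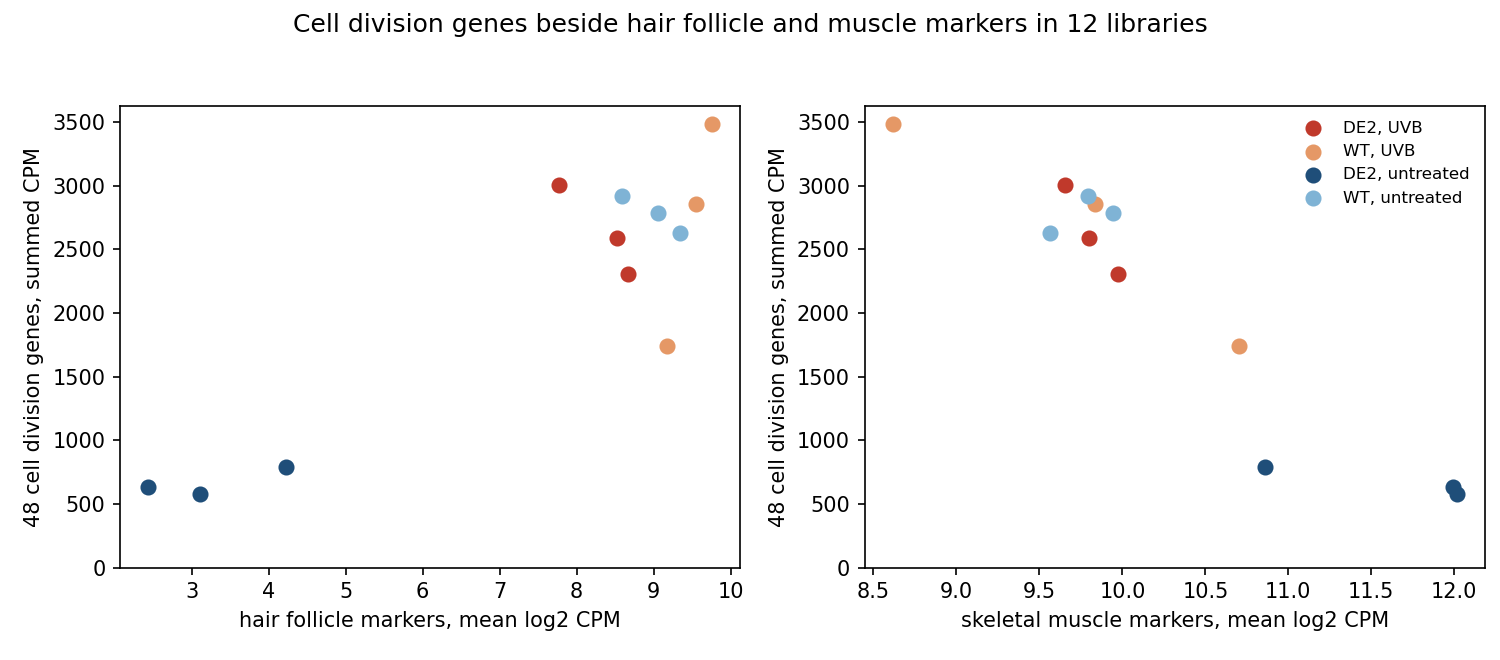
Summed CPM of the 48 genes (vertical axis) beside the mean log2 CPM of hair follicle markers (left) and of skeletal muscle markers (right), 1 point per library, coloured by group. The untreated DE2 libraries lie at 580 to 786 CPM with hair follicle means of 2.44 to 4.22, apart from the other 9 libraries.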

How the data were processed

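The authors deposited whole-number read counts for each Ensembl gene, with no normalization. The submitters' processing notes name HTSeq 2.0.2, SAMtools 1.16, Picard 3.1.0, Trimmomatic 0.39 and GRCm38. Aligner, annotation release, strand setting and any removal of duplicates were not given in the sources used here. Exons of 11 of the 48 genes overlap a gene on the opposite strand, and those reads cannot be told apart without the strand setting. Symbols, positions and overlaps are from GENCODE M21 (GRCm38), and promoters from RefSeq (GRCm38.p6).

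Counts were fitted in R 4.3.3 with edgeR 4.0.16 (filterByExpr with a minimum count of 10, TMM, robust quasi-likelihood fit, 1 mean per group over all 12 libraries), and 5 contrasts were tested with Benjamini-Hochberg adjustment over 15126 genes and a threshold of 0.05. Values after ± are SD for levels and a standard error worked back from the test statistic for log2 fold changes. For log2 CPM a prior count of 1 was added. limma 3.58.1 and DESeq2 1.42.0 were alternatives, with other scalings, filters, covariates and left-out libraries. The fit was tested on simulated data with 100 genes changed at each fold. For UVB in WT it called 16% of 2-fold and 61% of 4-fold changes in the right direction. For DE2 against WT with UVB these shares were 7% and 50%, and for the interaction 2% and 33%. They were 14% and 69% for UVB in DE2, and 12% and 63% for genotype at the untreated site. Most 2-fold changes were thus missed in the simulations, where all other genes had the same mean in each group. A 2-fold change could likewise be missed in the comparisons with 0 calls among the 48. Where many genes differ, as in the comparisons with untreated DE2, the adjusted threshold is less strict than in the simulations. There, calls among the 48 genes reached down to log2 fold changes of 0.60 with UVB in DE2 and -0.70 at the untreated site. No 2 libraries of the same group matched within sampling noise. Of the 48 genes 34 had at least 10 counts in each untreated DE2 library and 45 at least 1.

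The members and all lists were chosen with earlier results of these data known. Named in full are the 2 genes of highest mean count in each role group and those whose call differs from their group. From other lists at most 4 genes are named, by highest mean count, with Cdkn1a, Ccnd1 and Myc.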

Additional observations from a re-analysis of the deposited data

Results flagged for a closer look

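The response to UVB differed between DE2 and WT skin, by edgeR's quasi-likelihood test of the interaction itself, in 30 of the 48 genes. Each value is the log2 fold change with UVB in DE2 minus that in WT, and all 30 are positive. Over all genes 5.64% passed in that direction and 4.84% in the other. The 48 genes summed to 2631 CPM in irradiated DE2 and 2693 CPM in irradiated WT, where 0 of them were called between genotypes. Untreated, the sums were 667 CPM in DE2 and 2775 CPM in WT, so the groups differed at the untreated site. Among the general markers it was 3.17 for Mki67 and 2.78 for Top2a. In replication and nucleotide supply it was 2.02 for Cdt1, 1.60 for Mcm5, 2.49 for Rrm2, 1.60 for Tyms and 1.37 for Tk1. The cyclins and Cdk1 gave 2.76 for Ccna2, 2.49 for Ccnb1, 3.41 for Ccnb2 and 2.98 for Cdk1. Kinases and passenger complex genes gave 4.80 for Aurkb, 2.46 for Plk1, 2.91 for Birc5 and 2.85 for Cdca8. Checkpoint and anaphase genes gave 4.28 for Bub1, 2.88 for Bub1b, 3.50 for Cdc20, 3.00 for Ube2c and 2.78 for Cdca3. At the centromere the values were 2.63 for Cenpa, 3.79 for Cenpe and 3.41 for Cenpf. Spindle genes gave 3.58 for Kif2c, 3.28 for Tpx2, 2.52 for Nusap1 and 2.45 for Hmmr, and midzone genes 2.15 for Kif23, 2.98 for Racgap1 and 3.23 for Ect2. Aurkb and Bub1, the highest of them, had 15 and 6 counts in all over the untreated DE2 libraries.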

How the results depend on the processing

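The counts of called genes among the 48 kept within 1.5 times their reported value under each alternative scaling, filter and tool, with only the compared libraries and with libraries left out. They changed with the marker covariates alone. With the skeletal muscle covariate they were 18 for UVB in DE2, 15 for genotype at the untreated site and 12 for the interaction. With the hair follicle covariate they were 0, 0 and 0. With single libraries left out the counts were 33 to 42 for UVB in DE2, 35 to 44 for genotype at the untreated site and 23 to 36 for the interaction, and 0 in both other comparisons, whose medians lay near 0 and changed sign with some libraries left out. Among the 22 genes with the highest mean counts, 2 per role group, values past the threshold changed sign under a covariate alone. UVB in DE2 gave -0.024 for Pcna with the muscle covariate, and with the hair follicle covariate -0.46 for Mki67, -0.53 for Pcna, -3.27 for Ccne1, -6.50 for Mybl2 and -1.02 for Kif23. Under that covariate genotype at the untreated site gave 0.65 for Mki67, 0.44 for Pcna, 4.09 for Ccne1, 6.91 for Mybl2 and 1.04 for Kif23, and the interaction gave -0.24 for Kif23. None of these values of changed sign passed, and the lowest adjusted p was 0.625, for Mybl2 with UVB in DE2 (edgeR's quasi-likelihood test). As the hair follicle covariate and the group cannot be told apart, the values under it give no estimate of an opposite group effect. The cause of the sign changes was not tested. The values of these 22 genes stayed, over the alternatives, on their side of the threshold in 438 of 484 cases at the untreated site, 424 of 484 with UVB in DE2 and 412 of 462 in the interaction. Scaled to total counts, the median log2 fold change of all genes was -0.37 at the untreated site, 0.26 with UVB in DE2 and 0.38 in the interaction, against 0.031, 0.019 and 0.042 with TMM, and 45, 43 and 32 of the 48 genes were called. No paired analysis was possible because the labels carry no replicate number and tie no library to an animal. Depth limits Bub1, Aurkb and the other genes with few counts in untreated DE2 skin.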
